A study of Mus musculus with 20 samples.

Results

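The 31 genes described here encode enzymes, enzyme subunits and transporters of glycolysis, lactate metabolism and the citric acid cycle. They were taken by name from the 54532 genes of the count table, as a list drawn up when earlier results of these data were known. All 31 were found, and all had enough counts to be tested in every comparison. The glycolysis and lactate group holds 20 genes, of which 9 belong to hexose entry and upper glycolysis, 7 to lower glycolysis and 4 to lactate. The citric acid cycle group holds 11 genes. It includes Pdhb, a subunit of the pyruvate dehydrogenase complex that feeds the cycle, and Mdh1, the cytosolic malate dehydrogenase.

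Expression was measured by RNA sequencing of poly-A RNA from the hypothalamus of male C57BL/6J mice in 20 libraries. Acute Gly-Low (4 libraries) and acute control (5 libraries) mice were 4 months old and received a glycation-lowering diet, Gly-Low, or the control diet for 1 week. Old Gly-Low (3 libraries) and old control (4 libraries) mice were 25 months old and received the same diets for 5 months. Young control (4 libraries) mice were 3 months old and had the control diet for 1 week. The labels give no other allele or agent for any group. They leave unsaid if the libraries are of separate animals, and p-values thus measure the spread between these samples, which may be technical. Markers of the hypothalamus, such as Agrp, Pmch and Hcrt, were read in each group, with 0 of the 15 markers at 0.

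Glycolysis splits glucose into pyruvate in the cytosol, and pyruvate is either reduced to lactate or oxidised by the citric acid cycle in mitochondria. In the brain, neurons and astrocytes differ in the isoenzymes they use, and lactate made by glia is thought to be taken up by neurons through monocarboxylate transporters. Methylglyoxal, the reactive product that drives much of glycation, forms from the triose phosphates between aldolase and glyceraldehyde-3-phosphate dehydrogenase.

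The libraries held 15848372 to 27399753 counts each. Transcripts of the mitochondrial genome took 17.0% to 23.3% of the counts in acute Gly-Low libraries, against 5.35% to 9.11% in acute control libraries. A length slope was taken per library by regressing each gene's log2 deviation from its average level on log2 transcript length, and it was −0.43 to −0.23 in acute Gly-Low against 0.14 to 0.23 in acute control. Old control 3 and young control 2 also stood apart, with mitochondrial shares of 15.8% and 17.2% and length slopes of −0.20 and −0.27. Acute controls 2, 3 and 5 held transcripts of the pituitary, with a summed level of 4250 to 64580 CPM over 10 pituitary markers, against 74.1 to 297.5 CPM in acute Gly-Low. Because short transcripts took more of the acute Gly-Low libraries, acute results are given with and without an offset that removes the trend of each library over transcript length and GC content. Levels are CPM (read counts scaled to library size) after TMM scaling, and comparisons between genes use CPM per kilobase of transcript.

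Per kilobase, Aldoa was the highest of the 31 genes in each group but acute Gly-Low. In acute Gly-Low, Mdh1 was the highest of the 31 genes at 790.2 ± 131 CPM per kb (SD, n = 4), Aldoc followed at 722 ± 59.4 and Tpi1 at 587 ± 29.2, and Aldoa came next at 557 ± 62.0. Mdh1 and Aldoc did not differ beyond their spread. In acute control, Aldoa was the highest at 924 ± 123 CPM per kb (SD, n = 5), followed by Pkm at 628 ± 39.4, Aldoc at 596 ± 61.5 and Tpi1 at 469 ± 26.8, and Mdh1 stood further down at 374 ± 53.2. Pkm and Aldoc lay within their spread there. Aldoa was also the highest in old Gly-Low (910.0 ± 56.1 CPM per kb), old control (1112 ± 153) and young control (1294 ± 140). At the low end stood Pfkl, the liver-type phosphofructokinase subunit, at 6.59 ± 1.08 CPM per kb in acute Gly-Low, Suclg2 at 10.5 ± 0.83 in acute control, and Slc16a7 at 7.54 to 9.02 in the ageing arm.

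The acute comparison asks what 1 week of Gly-Low changes in the hypothalamus of young mice. Most of the 20 glycolysis and lactate genes were lower in acute Gly-Low. Most of the 11 citric acid cycle genes of the list were higher, unless the trends over length and GC content were removed. The 15 other citric acid cycle genes tested, described below, moved both ways. Of the 20 glycolysis and lactate genes, 13 fell and 3 rose, with a median log2 fold change of −0.92. Of the 11 citric acid cycle genes, 7 rose and 2 fell, with a median of 0.43, while 4 were called higher and 3 lower with the length and GC offset, with a median of 0.06. Over all 17161 genes tested, 30.5% were called lower and 27.8% higher at an adjusted p under 0.05, with a median of −0.07. For single genes, adjusted p-values come from edgeR's quasi-likelihood test with Benjamini-Hochberg adjustment over all genes tested. In bulk RNA, fewer cells of a type and less RNA per cell cannot be told apart.

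Hk1, Pfkl and Pfkp of upper glycolysis had the greatest decreases of the 31 genes after Gapdh. Of the 9 upper glycolysis genes, 8 fell and 1 was not called. Slc2a3 (ENSMUSG00000003153, chromosome 6, 122727809 to 122801640, GRCm38), the glucose transporter of neurons, had 52.0, 74.9, 64.5 and 52.2 CPM in acute Gly-Low, against 147, 121, 139, 148 and 131 CPM in acute control. Each acute Gly-Low library lay below each acute control library. Its log2 fold change was −1.16 ± 0.14 (SE, adjusted p = 7.49e-06), and −0.56 ± 0.12 with the length and GC offset. Gpi1, glucose-6-phosphate isomerase, had 223 to 282 CPM in acute Gly-Low, against 343 to 554 CPM in acute control, a log2 fold change of −0.92 ± 0.15 (adjusted p = 0.000128), and −0.40 ± 0.12 with the offset.

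Phosphofructokinase, which commits glucose to glycolysis, is a tetramer of subunits encoded by Pfkm, Pfkp and Pfkl, and all fell. Pfkp (chromosome 13, 6579768 to 6648777) had 91.5, 103, 95.6 and 85.7 CPM in acute Gly-Low, against 264, 244, 243, 263 and 236 CPM in acute control. The replicates of each group were close together and the groups were far apart. The log2 fold change of Pfkp was −1.40 ± 0.12 (adjusted p = 3.76e-07), and −0.91 ± 0.10 with the offset. Pitrm1, a gene on the other strand, overlaps Pfkp, and its counts reached 32.5% of those of Pfkp in a library, so reads of the pair may be mixed in these strandless libraries. Pfkm had 188 to 219.8 CPM in acute Gly-Low, against 349 to 430.4 CPM in acute control (log2 fold change −0.91 ± 0.13, adjusted p = 2.69e-05), and −0.44 ± 0.11 with the offset. Pfkfb3 makes fructose-2,6-bisphosphate, the main activator of phosphofructokinase, and is known for low activity in neurons and high activity in astrocytes. It had at most 23.6 CPM in each acute Gly-Low library, against 42.7 to 62.0 CPM in acute control, with a log2 fold change of −1.25 ± 0.15 (adjusted p = 7.39e-06), and −1.08 ± 0.13 with the offset.

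Hk1, the hexokinase of brain, and Pfkl varied strongly within the control groups too. Hk1 had 21.9, 30.2, 35.2 and 32.8 CPM in acute Gly-Low, against 65.2, 173, 224, 172 and 198 CPM in acute control. Young controls 1 to 4 held 96.1, 28.2, 91.5 and 259 CPM, so young control 2 lay among the acute Gly-Low libraries. The log2 fold change of Hk1 in the acute comparison was −2.45 ± 0.28 (adjusted p = 4.65e-06), and −1.59 ± 0.19 with the offset. Pfkl had 21.4 to 30.4 CPM in acute Gly-Low, against 54.0 to 90.6 CPM in acute control (log2 fold change −1.67 ± 0.17, adjusted p = 1.31e-06), and −0.77 ± 0.11 with the offset. When the length slope entered as a covariate (a fit on all 20 libraries), neither was called, at 0.22 (adjusted p = 0.753) for Hk1 and 0.01 (adjusted p = 0.99) for Pfkl. In that fit the median of all genes shifted to 0.17. The slope split the acute groups without overlap, so slope and diet cannot be told apart in the acute arm.

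The aldolases, which cleave fructose-1,6-bisphosphate into triose phosphates, differed in their calls. Aldoa, the widely expressed form, had 935, 908, 751 and 770.5 CPM in acute Gly-Low, against 1115, 1442, 1585, 1517 and 1320.0 CPM in acute control. The groups did not overlap, and the log2 fold change was −0.71 ± 0.15 (adjusted p = 0.00100), or −0.83 ± 0.12 with the offset. Aldoc, the brain form that marks astrocytes, had 1710.0, 1546, 1470.0 and 1751 CPM in acute Gly-Low, against 1223, 1281, 1493, 1477 and 1210.0 CPM in acute control. Acute Gly-Low 3 lay below acute controls 3 and 4, so these groups overlapped, and Aldoc was not called at 0.29 ± 0.14 (adjusted p = 0.0871). With the offset it was called higher, at 0.46 ± 0.12 (adjusted p = 0.00496).

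**Figure D1:**
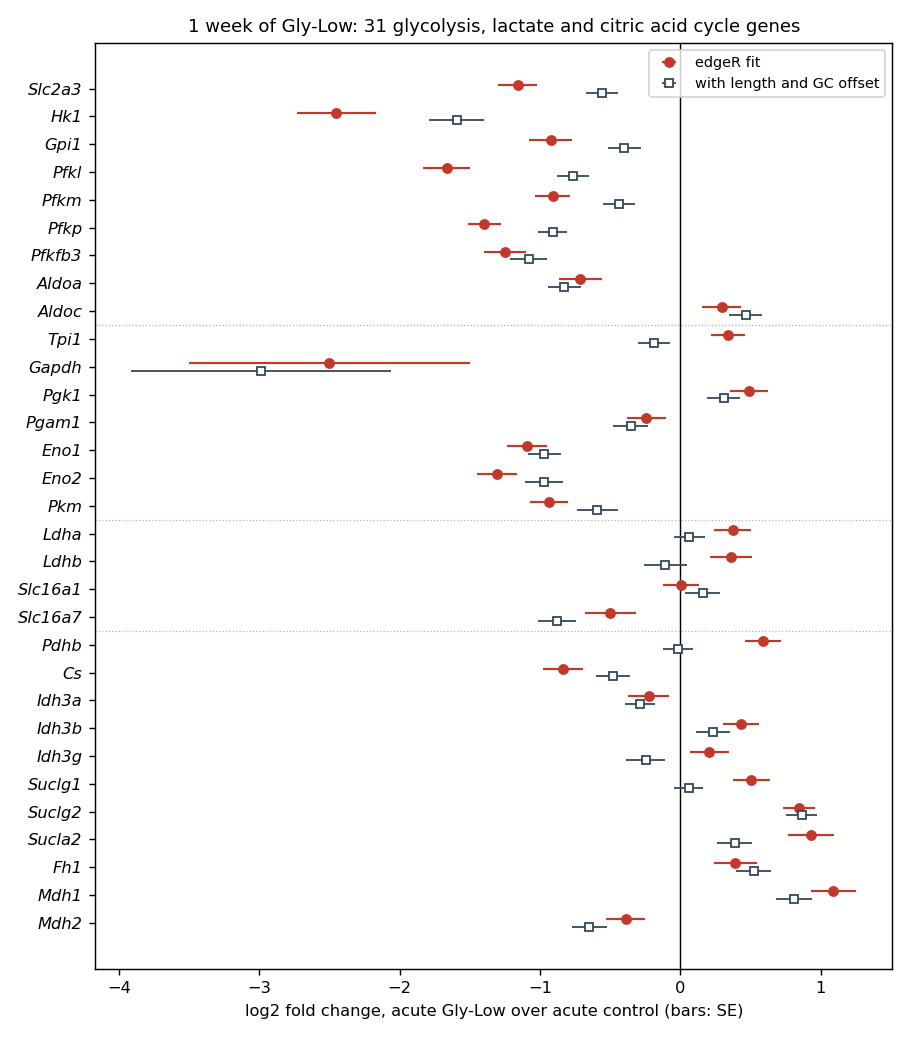
Log2 fold change (x axis) of the 31 genes (rows), acute Gly-Low over acute control, with SE bars, from the edgeR fit (filled circles) and with the length and GC offset (open squares); dotted lines part upper glycolysis, lower glycolysis, lactate and citric acid cycle genes. Upper glycolysis genes other than Aldoc lie left of 0 with both, while the squares of Pdhb, Idh3b, Idh3g, Suclg1 and Sucla2 lie left of their circles.

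In lower glycolysis, 4 of 7 genes fell, 2 rose and 1 was not called. Eno2, the neuronal enolase, had 287, 333, 251 and 242 CPM in acute Gly-Low, against 695, 647, 766, 738 and 635 CPM in acute control. Eno1, the enolase of glia and most other cells, had 384 to 455 CPM in acute Gly-Low, against 741 to 1037 CPM in acute control. Both enolases fell without overlap of the groups, by log2 fold changes of −1.31 ± 0.14 for Eno2 (adjusted p = 3e-06) and −1.09 ± 0.14 for Eno1 (adjusted p = 1.41e-05). With the offset both were at −0.97. Pkm, the pyruvate kinase of brain, had 683, 828, 687 and 704 CPM in acute Gly-Low, against 1336, 1365, 1475, 1521 and 1325 CPM in acute control. Its log2 fold change was −0.94 ± 0.14 (adjusted p = 4.15e-05), and −0.59 ± 0.14 with the offset. Thus the genes of both reactions that follow phosphoglycerate mutase were lower.

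Pgk1, Tpi1 and Pgam1 of the middle steps depended more on the length and GC trends. Pgk1, phosphoglycerate kinase, had 508, 599, 609 and 611 CPM in acute Gly-Low, against 489, 376, 414, 446 and 367 CPM in acute control, with no overlap. It rose by a log2 fold change of 0.49 ± 0.13 (adjusted p = 0.00614), and 0.31 ± 0.12 with the offset. The call of Pgk1 held in 19 of 22 alternative fits. It was lost with an offset for length alone, with the length slope covariate (−0.06) and without acute controls 2, 3 and 5. Tpi1, the triose phosphate isomerase, had 669 to 754 CPM in acute Gly-Low, against 514 to 590.0 CPM in acute control, and rose by 0.34 ± 0.12 (adjusted p = 0.0272). With the offset the sign of Tpi1 turned, to −0.19 ± 0.11 (adjusted p = 0.193), and with an offset for length alone Tpi1 was called lower, at −0.38 (adjusted p = 0.0194). Pgam1, phosphoglycerate mutase, had 212 to 304 CPM in acute Gly-Low, against 269 to 324 CPM in acute control, at −0.24 ± 0.14 (adjusted p = 0.152). With the length and GC offset Pgam1 was called lower, at −0.35 ± 0.13 (adjusted p = 0.0305).

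Gapdh, glyceraldehyde-3-phosphate dehydrogenase, could not be read with confidence. Its raw counts ran from 43 to 10485 over the 20 libraries. It had 37.9, 2.35, 2.82 and 3.95 CPM in acute Gly-Low, 4.09, 89.0, 103, 136 and 5.64 CPM in acute control, and 5.08, 43.2, 439 and 7.71 CPM in young control, so levels spread widely within groups. The annotation holds 77 near-identical copies of Gapdh, with at least 95% identity over at least 300 bases, and their summed counts reached 3190% of those of Gapdh in a library. Reads of the gene may thus be split among copies. Its log2 fold change of −2.50 ± 1.00 (adjusted p = 0.0437) is given for completeness, as is −2.99 ± 0.93 with the offset.

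Of the 4 lactate genes, 1 rose, 1 fell and 2 were not called. Ldha, the lactate dehydrogenase subunit that favours lactate production, had 379, 318, 297 and 294 CPM in acute Gly-Low, against 280.4, 222, 262, 264 and 229.9 CPM in acute control. It rose by a log2 fold change of 0.37 ± 0.13 (adjusted p = 0.0256), but not with the offset, at 0.06 ± 0.11 (adjusted p = 0.67). Ldhb, the subunit that favours lactate use, had 565 to 625 CPM in acute Gly-Low, against 384 to 604 CPM in acute control, at 0.36 ± 0.15 (adjusted p = 0.0517). Its sign turned with the offset, to −0.11 ± 0.15 (adjusted p = 0.594). Slc16a1 (MCT1), the lactate transporter of endothelial cells and glia, had 58.5 to 64.8 CPM in acute Gly-Low, against 49.6 to 75.0 CPM in acute control, a log2 fold change of 0.01 ± 0.13, or 0.16 ± 0.12 with the offset. Slc16a7 (MCT2), the lactate transporter of neurons, had 15.3 to 24.6 CPM in acute Gly-Low, against 21.8 to 34.9 CPM in acute control, and fell with a log2 fold change of −0.50 ± 0.18 (adjusted p = 0.0287), or −0.88 ± 0.14 with the offset. The call of Slc16a7 held in 14 of 22 alternative fits, and was lost with an offset for length alone.

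Among the citric acid cycle genes, Mdh1, Sucla2 and Suclg2 had the greatest increases. Mdh1 (chromosome 11, 21556787 to 21572367), which works in the malate-aspartate shuttle, had 1300.0, 1665, 1786 and 1957 CPM in acute Gly-Low, against 973, 718, 727, 839 and 714 CPM in acute control. The groups did not overlap, and the log2 fold change was 1.09 ± 0.16 (adjusted p = 5.03e-05), or 0.81 ± 0.13 with the offset. Suclg2, the GTP-forming subunit of succinyl-CoA ligase, had 54.4, 53.3, 55.1 and 56.8 CPM in acute Gly-Low, against 28.3, 28.3, 31.7, 33.3 and 32.9 CPM in acute control. It rose by 0.84 ± 0.11 (adjusted p = 1.91e-05) and by 0.86 ± 0.11 with the offset. The counts of a near-identical copy, Gm15163, reached 13.2% of those of Suclg2. Sucla2, the ATP-forming subunit, had 276, 362, 408 and 422 CPM in acute Gly-Low, against 252, 171, 185, 198 and 166 CPM in acute control, at 0.93 ± 0.16 (adjusted p = 0.000188) and 0.39 ± 0.12 with the offset. Suclg1, the subunit common to both forms of the enzyme, rose by 0.50 ± 0.13 (adjusted p = 0.00412), but was at 0.06 ± 0.10 with the offset.

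Pdhb (0.59 ± 0.13, adjusted p = 0.00113), Idh3b (0.43 ± 0.13, adjusted p = 0.0111), a subunit of isocitrate dehydrogenase, and Fh1 (0.39 ± 0.15, adjusted p = 0.0415), the fumarase, also rose on the log2 scale. With the offset Pdhb was at −0.02 ± 0.10 and Idh3b at 0.23 ± 0.12, both uncalled, while Fh1 stayed called at 0.52 ± 0.12. The call of Fh1 held in only 11 of 22 alternative fits, and was lost without acute controls 2, 3 and 5. Nop56 lies over Idh3b on the other strand with counts of up to 54.8% of those of Idh3b, so its value is uncertain. The other subunits of isocitrate dehydrogenase were not called, with Idh3a at −0.23 ± 0.15 and Idh3g at 0.20 ± 0.14. With the offset Idh3a was called lower, at −0.29 ± 0.11 (adjusted p = 0.0415), and Idh3g turned to −0.25 ± 0.14 (adjusted p = 0.163). Cs, citrate synthase, which opens the cycle, went the other way. It had 160.3, 163, 132 and 123 CPM in acute Gly-Low, against 214, 257, 279, 304 and 255 CPM in acute control, and fell by a log2 fold change of −0.84 ± 0.14 (adjusted p = 0.000149), or −0.48 ± 0.12 with the offset. Mdh2, the mitochondrial malate dehydrogenase, fell by −0.39 ± 0.14 (adjusted p = 0.0267), or −0.65 ± 0.13 with the offset, against the rise of its cytosolic counterpart Mdh1. The call of Mdh2 held in 17 of the 22 alternative fits.

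**Figure D2:**
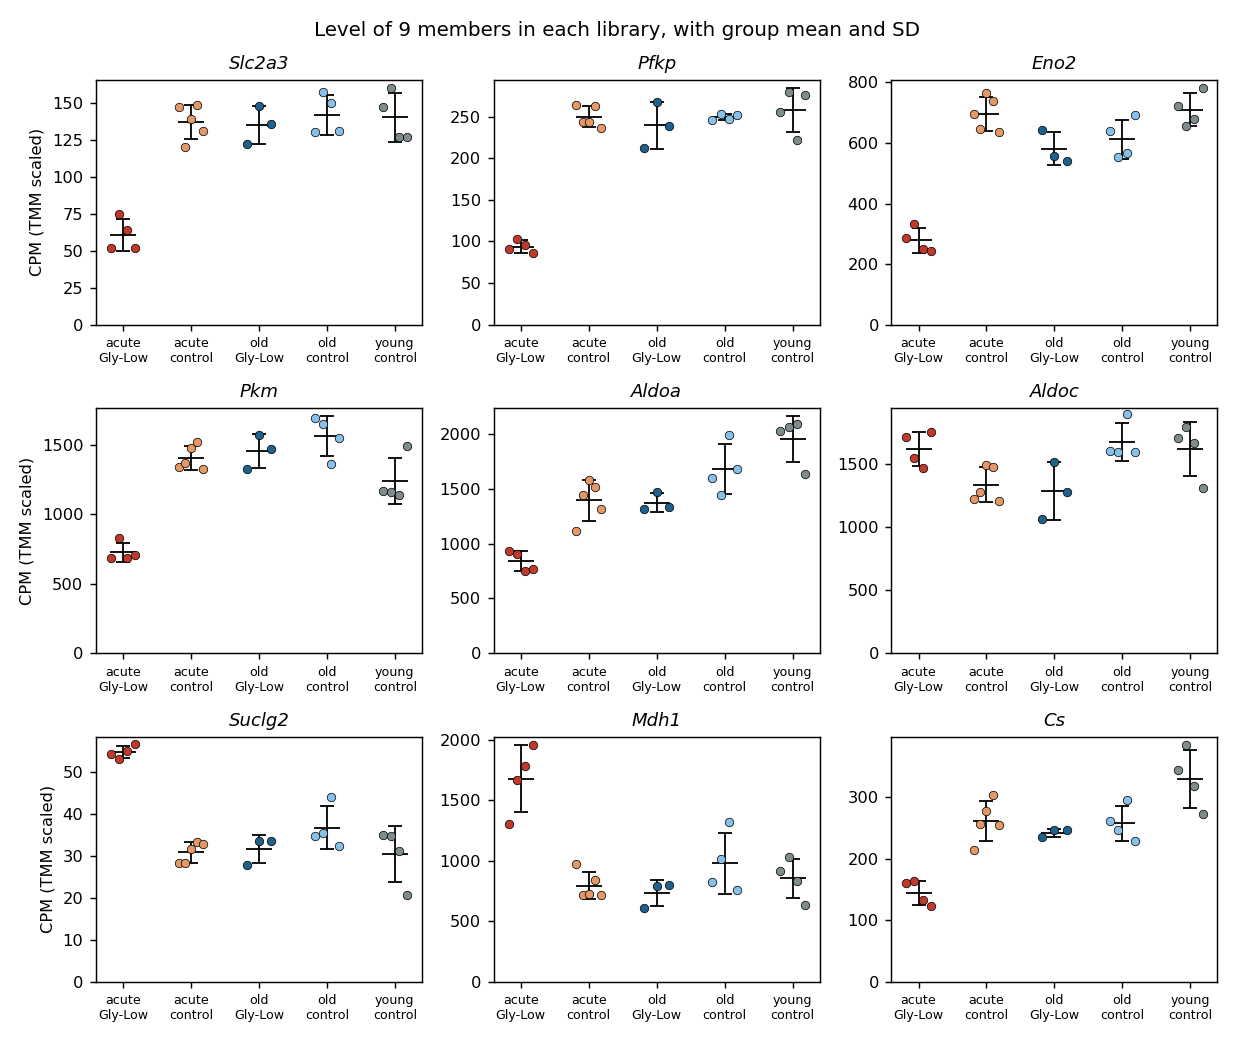
Level in CPM (y axis, from 0) of 9 genes in each library (points) of the 5 groups (x axis), with the group mean and SD (bars). The 4 acute Gly-Low libraries lie below the acute controls for Slc2a3, Pfkp, Eno2, Pkm, Aldoa and Cs and above them for Suclg2 and Mdh1, while the Aldoc groups overlap.

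Without overlap between the acute groups, 9 of the 31 genes lay higher in acute Gly-Low and 13 lower, where 23% of all genes tested lay higher and 23.9% lower in this way. Of the 25 genes called, 9 kept their call under each of the 22 alternatives run for the acute comparison, which were Slc2a3, Gpi1, Pfkm, Pfkp, Aldoa, Eno1, Eno2, Pkm and Cs, all lower. With the length and GC offset, under which 22.7% of all genes were called higher and 22.7% lower, 14 glycolysis and lactate genes were lower and 2 higher, and 3 citric acid cycle genes (Cs, Idh3a and Mdh2) were lower and 4 (Suclg2, Sucla2, Fh1 and Mdh1) higher. With the length slope as a covariate, under which 11.2% of all genes were called higher and 8.76% lower, 10 glycolysis and lactate genes and 3 citric acid cycle genes were lower and none of the 31 was higher. Without acute controls 2, 3 and 5, where 19.7% of all genes were called higher and 21.1% lower, 12 glycolysis and lactate genes were lower and none higher, and 3 citric acid cycle genes were lower and 3 higher, which were Suclg2, Sucla2 and Mdh1.

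The glycolysis and lactate transcripts had a median GC content of 53.6% and a median length of 2240 bases, against 47.7% and 1887 bases for the citric acid cycle transcripts. Across the 31 genes, the acute log2 fold change had a Spearman correlation of −0.62 with GC content and −0.35 with length, as a description over genes measured in the same 9 libraries. Over all genes the values were −0.24 and −0.56. After the offset the correlation with GC content was −0.61 over the 31 genes and −0.00489 over all genes. The part of transcript length, GC content or the mitochondrial share in the difference between the 2 gene groups was not tested beyond these fits.

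Markers of cell types moved as well, in a comparison where 27.8% of all genes tested were called higher and 30.5% lower. The summed level of 10 neuron markers was 3110 to 3537 CPM in acute Gly-Low, against 4205 to 5294 CPM in acute control, and 6 of the 10 fell. For 10 astrocyte markers it was 3055 to 3751 CPM in acute Gly-Low, against 3193 to 4195 CPM in acute control, with 3 higher and 4 lower. All 6 tested erythrocyte markers rose, with a summed level of 709.7 to 1673 CPM over 7 markers in acute Gly-Low, against 156 to 400.1 CPM in acute control. Oligodendrocyte markers gave 4 higher and 1 lower of 10 (8026 to 11350 CPM in acute Gly-Low, against 5415 to 9979 CPM in acute control), microglia markers 6 higher and 2 lower of 10 (429.8 to 495.5 CPM in acute Gly-Low, against 336.6 to 406.4 CPM in acute control), and endothelial markers 2 higher and 4 lower of 8 (221 to 264 CPM in acute Gly-Low, against 180.1 to 294 CPM in acute control). Meninges markers gave 5 higher and 0 lower of 7 tested (172 to 344.5 CPM in acute Gly-Low, against 62.4 to 162 CPM in acute control), choroid plexus markers 3 higher and 2 lower of 7 tested (35.7 to 49.9 CPM in acute Gly-Low, against 37.7 to 46.2 CPM in acute control), and hypothalamus markers 7 higher and 3 lower of 15 (1658 to 2851 CPM in acute Gly-Low, against 608 to 1486 CPM in acute control). All 8 tested pituitary markers fell, and Pou1f1, a factor of the pituitary, was at 0 in acute Gly-Low. No other marker of these lists was at 0 in either acute group, and their part in the results was not tested.

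Promoter windows of RefSeq, 250 bases before to 50 after a start in GRCm38.p6, were found for 28 of the 31 genes. Many genes of glycolysis are textbook targets of hypoxia-inducible factors, whose response element holds the core ACGTG, and this core was searched on both strands, so that CACGTG counts as 2 matches that overlap. It was found in at least 1 window of 11 of 18 glycolysis and lactate genes (61.1%) and 3 of 10 citric acid cycle genes. Of all 27025 genes with a window, 21.8% held it in at least 1 window. Some genes have several windows. Next, only the window nearest the annotated start was taken for each gene. There 8 of 18 glycolysis and lactate genes (44.4%) and 3 of 10 citric acid cycle genes (30%) held the core. Of all 32851 windows 19.6% held it, a share per window and not per gene, so the units differ. The nearest window can be far off, at 4329 bases from the annotated start for Ldha and 27467 bases for Sucla2. The windows nearest the annotated start are shown for the 2 genes with the smallest p among those that fell (Pfkp and Pfkl), the 2 among those that rose (Suclg2 and Mdh1), and the gene with the most matches (Ldha). Capitals mark ACGTG or its complement CACGT.
Pfkp, chr13:6648722-6649021, minus strand: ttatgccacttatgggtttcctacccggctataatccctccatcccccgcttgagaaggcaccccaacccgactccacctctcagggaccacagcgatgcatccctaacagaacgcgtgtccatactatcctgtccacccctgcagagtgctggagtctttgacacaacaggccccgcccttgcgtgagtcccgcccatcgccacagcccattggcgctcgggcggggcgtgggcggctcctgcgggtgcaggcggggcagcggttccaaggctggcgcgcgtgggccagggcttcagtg
Pfkl, chr10:78009758-78010057, minus strand: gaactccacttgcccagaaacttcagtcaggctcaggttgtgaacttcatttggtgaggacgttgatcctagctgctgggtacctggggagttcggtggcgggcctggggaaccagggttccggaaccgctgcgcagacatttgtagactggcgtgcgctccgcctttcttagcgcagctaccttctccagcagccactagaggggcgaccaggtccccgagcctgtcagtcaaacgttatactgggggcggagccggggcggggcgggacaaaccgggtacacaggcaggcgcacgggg
Suclg2, chr6:95718797-95719096, minus strand: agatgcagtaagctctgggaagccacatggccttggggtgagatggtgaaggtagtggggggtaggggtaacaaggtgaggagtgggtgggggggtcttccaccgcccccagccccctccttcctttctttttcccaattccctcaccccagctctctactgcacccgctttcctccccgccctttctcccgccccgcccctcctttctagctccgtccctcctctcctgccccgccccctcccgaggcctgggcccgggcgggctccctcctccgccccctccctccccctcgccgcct
Mdh1, chr11:21571885-21572184, minus strand: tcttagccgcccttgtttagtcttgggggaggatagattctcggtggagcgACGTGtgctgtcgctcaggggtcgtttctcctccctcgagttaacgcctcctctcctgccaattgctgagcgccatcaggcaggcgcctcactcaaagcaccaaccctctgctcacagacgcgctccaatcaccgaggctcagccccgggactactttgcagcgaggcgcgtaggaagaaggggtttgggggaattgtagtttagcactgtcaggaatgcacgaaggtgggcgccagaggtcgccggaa
Ldha, chr7:46845554-46845853, plus strand: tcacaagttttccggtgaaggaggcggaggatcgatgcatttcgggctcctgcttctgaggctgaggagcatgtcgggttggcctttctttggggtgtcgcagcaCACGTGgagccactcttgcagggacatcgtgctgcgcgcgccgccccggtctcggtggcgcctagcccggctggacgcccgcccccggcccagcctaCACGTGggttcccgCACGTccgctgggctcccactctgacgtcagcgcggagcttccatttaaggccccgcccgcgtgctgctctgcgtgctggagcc
The window of Ldha held 5 matches, that of Mdh1 held 1, and those of Pfkp, Pfkl and Suclg2 held 0, which says only that these letters are not in those windows. GC content was 64.7% for Pfkp, 62.3% for Pfkl, 67.7% for Suclg2, 59.3% for Mdh1 and 67.3% for Ldha.

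To set the 2 gene groups against each other within a library, the median log2 deviation of the citric acid cycle genes was taken from that of the glycolysis and lactate genes, without Gapdh. This balance does not depend on the scaling of a library. It was −1.11, −0.84, −1.14 and −1.04 in acute Gly-Low, against −0.05, 0.31, 0.38, 0.37 and 0.32 in acute control. It was 0.24 to 0.34 in old Gly-Low, −0.10 to 0.44 in old control and −0.05 to 0.57 in young control. With the length and GC trend of each library removed, it was −0.49, −0.42, −0.75 and −0.85 in acute Gly-Low, against 0.03 to 0.16 in acute control, and 0.04 to 0.33 in the 11 libraries of the ageing arm. The acute Gly-Low libraries thus lay below all 16 others with and without the trend. No p is given, since the genes were chosen with these results known.

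**Figure D3:**
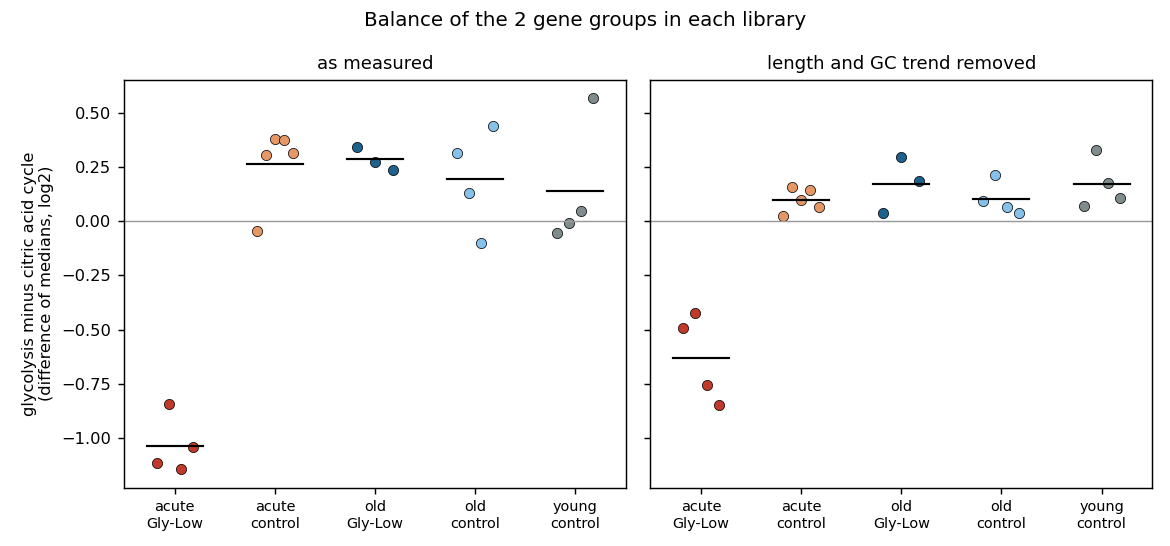
Median log2 deviation of 19 glycolysis and lactate genes minus that of 11 citric acid cycle genes (y axis) in each library (points) of the 5 groups (x axis), with the group mean (line), as measured (left) and with the length and GC trend of each library removed (right). The acute Gly-Low libraries lie at −1.14 to −0.84 on the left and −0.85 to −0.42 on the right, below all others.

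Ratios between isoenzymes were compared in each library, since the partners share a library's scaling. Over 7 ratios and 3 comparisons, the smallest p of the two-sided exact permutation test, adjusted over the 21 tests, was 0.15, so none passed. The smallest p the design allows is 0.0159 for the acute diet, 0.0286 for age and 0.0571 for the old diet. Aldoa over Aldoc had a log2 ratio of TPM of −0.30, −0.20, −0.40 and −0.61 in acute Gly-Low, against 0.44, 0.74, 0.66, 0.61 and 0.70 in acute control. The groups did not overlap, and the ratio was below 0 in acute Gly-Low alone. The difference was −1.01 (exact permutation p = 0.0159, adjusted p = 0.15), and −1.21 with the trends removed. Pfkm over Pfkp was also free of overlap, at 1.39 ± 0.13 (SD, n = 4) in acute Gly-Low against 0.895 ± 0.15 (SD, n = 5) in acute control (exact permutation p = 0.0159, adjusted p = 0.15). Of the summed TPM of the 3 phosphofructokinase genes, Pfkm held 67.8% ± 1.88 in acute Gly-Low, against 59.0% ± 1.86 in acute control (SD), and Pfkp held 26.0% ± 1.61 in acute Gly-Low, against 31.8% ± 2.56 in acute control.

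**Figure D4:**
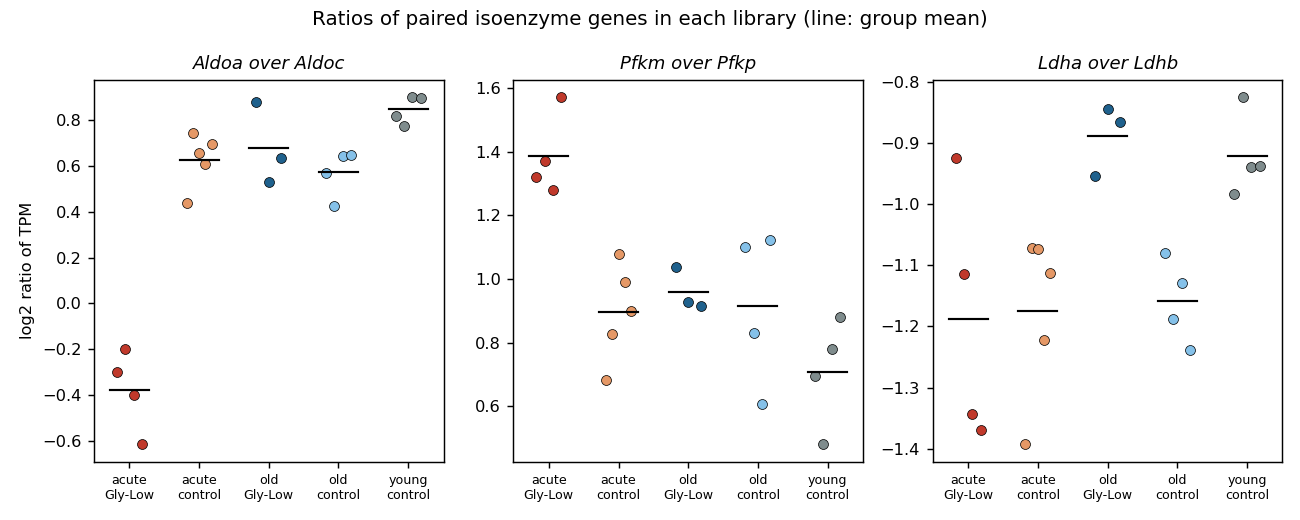
Log2 ratio of TPM (y axis) of Aldoa over Aldoc, Pfkm over Pfkp and Ldha over Ldhb in each library (points) of the 5 groups (x axis), with the group mean (line). Aldoa over Aldoc lies below 0 in the 4 acute Gly-Low libraries and above 0 in the other 16.

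Other genes of these pathways, from lists chosen with earlier results known, moved both ways in the acute comparison. The counts of each list stand beside 27.8% of all genes tested called higher and 30.5% called lower. Of 15 other citric acid cycle genes tested, 6 rose and 7 fell. The succinate dehydrogenase subunits Sdhd (1.47 ± 0.11, adjusted p = 2.49e-07) and Sdhb (1.38 ± 0.17, adjusted p = 7.43e-06) rose on the log2 scale. The oxoglutarate dehydrogenase gene Ogdh (−1.47 ± 0.14, adjusted p = 9.07e-07) and its relative Ogdhl (−1.60 ± 0.12, adjusted p = 2.49e-07) fell. All 4 kept their direction and call with the offset. Mpc1 and Mpc2, which form the mitochondrial pyruvate carrier, rose by 1.89 ± 0.15 (adjusted p = 2.55e-07) and 1.56 ± 0.14 (adjusted p = 5.03e-07), or 0.52 and 0.79 with the offset. Of the 7 other lactate and pyruvate transport genes tested, 3 rose and 2 fell.

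Of 15 other glycolysis and glucose genes tested, 1 rose and 7 fell, with a median log2 fold change of −0.67. The riser was Bpgm, bisphosphoglycerate mutase, which is also among the erythrocyte markers, at 171 ± 14.6 CPM in acute Gly-Low and 79.0 ± 9.95 CPM in acute control (SD, log2 fold change 1.13 ± 0.13, adjusted p = 3.85e-06, and 1.15 with the offset). Hk2, an inducible hexokinase, fell by −1.33 ± 0.22 (adjusted p = 0.000118), but at −0.44 (adjusted p = 0.101) was not called with the offset. In the malate-aspartate shuttle 3 of 5 other genes fell and 0 rose, among them Got1 (−0.97 ± 0.15, adjusted p = 7.88e-05) and Got2 (−1.23 ± 0.15, adjusted p = 9.1e-06), the aspartate aminotransferases, against the rise of Mdh1. With the offset Got1 was at −0.89 and Got2 at −0.81, both called. Of 10 glycogen genes 2 rose and 5 fell, with Pygm, glycogen phosphorylase, at −1.57 ± 0.13 (adjusted p = 3.15e-07), or −1.04 with the offset. Pentose phosphate genes gave 2 higher and 3 lower of 7, with Tkt, transketolase, at −0.91 ± 0.13 (adjusted p = 3.24e-05) and Rpe, ribulose-phosphate epimerase, at 1.16 ± 0.14 (adjusted p = 8.5e-06), or −0.28 for Tkt and 0.53 for Rpe with the offset. Of 11 other genes around pyruvate dehydrogenase, a list that also holds Pcx, pyruvate carboxylase, 2 rose and 4 fell. Pcx was at −1.44 ± 0.19 (adjusted p = 1.39e-05), or −0.44 with the offset. Of 10 hypoxia targets outside glycolysis, 4 rose and 1 fell, and 2 rose and 2 fell with the offset. In the age and old diet comparisons, none of the genes of these 8 lists was called.

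The old diet comparison asks what 5 months of Gly-Low changes at 25 months of age. None of the 31 genes was called, nor was any gene of the 18281 tested (0% higher and 0% lower) by edgeR, with 433 genes at an unadjusted p under 0.05. By limma-voom with sample quality weights 0 genes were called too, and by DESeq2 3 genes, of which 0 were among the 31. Direction leaned one way: 28 of the 31 genes, and all 11 citric acid cycle genes, had a negative log2 fold change. The median was −0.31 for the citric acid cycle genes and −0.09 for the glycolysis and lactate genes, against 0.03 for all genes. The gap between the gene groups did not hold in each fit. The medians were −0.10 for the citric acid cycle genes and −0.12 for the glycolysis and lactate genes by limma-voom, and −0.18 for the citric acid cycle genes and −0.17 for the glycolysis and lactate genes with the length slope covariate. Over the 31 genes the median was −0.23, and −0.13 without old control 3, beside 0.03 and 0.04 for all genes. Without old Gly-Low 1 the gap to all genes was smaller, at −0.14 for the 31 genes and −0.07 for all genes. In that fit 26 of the 31 were negative. Idh3b had 168, 206 and 189.9 CPM in old Gly-Low, against 228, 272, 328 and 236 CPM in old control, a log2 fold change of −0.48 ± 0.19 (adjusted p = 0.953 by edgeR). Mdh2 had 233, 265 and 242 CPM in old Gly-Low, against 284, 302, 374 and 284 CPM in old control, at −0.31 ± 0.16. These and Aldoc, with 1064 to 1516 CPM in old Gly-Low against 1593 to 1900.0 CPM in old control, were the 3 genes whose groups did not overlap, all lower, where 3.5% of all genes tested lay lower and 3.02% higher in this way. Mdh1, which rose in the acute arm, was at −0.40 ± 0.24 here, and Pfkp at −0.04 ± 0.13. With the length and GC offset the median of the citric acid cycle genes was −0.26.

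Age was read as old control over young control, and it shares the old controls with the old diet comparison. None of the 31 genes was called, where 6 genes of 18281 (0.0328%) were called higher and 0% lower by edgeR, with 1663 genes at an unadjusted p under 0.05. DESeq2 called 0 of the 31, where it called 1.15% of all genes higher and 0.968% lower. Limma-voom, whose quality weights let libraries count unequally, called 2 of the 31 higher and 3 lower, near its shares of 9.43% higher and 12% lower over all genes. The genes with the smallest p were Pgam1, Cs and Pkm. Pgam1 averaged 289 ± 27.9 CPM in old control and 372 ± 36.0 CPM in young control (SD, n = 4 each), a log2 fold change of −0.38 ± 0.14 (adjusted p = 0.398). Cs averaged 258 ± 28.4 CPM in old control and 331 ± 47.0 CPM in young control, at −0.38 ± 0.15 (adjusted p = 0.45). Pkm averaged 1562 ± 147 CPM in old control and 1239 ± 167 CPM in young control, at 0.32 ± 0.13 (adjusted p = 0.504). The medians were 0.09 over the 20 glycolysis and lactate genes and 0.06 over the 11 citric acid cycle genes, against 0.02 for all genes. Their sign was not stable. By limma-voom the citric acid cycle median was −0.17, with 10 of 11 genes negative, and the median of the 31 genes, 0.08, was −0.06 without old control 3 and −0.04 without young control 4.

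**Figure D5:**
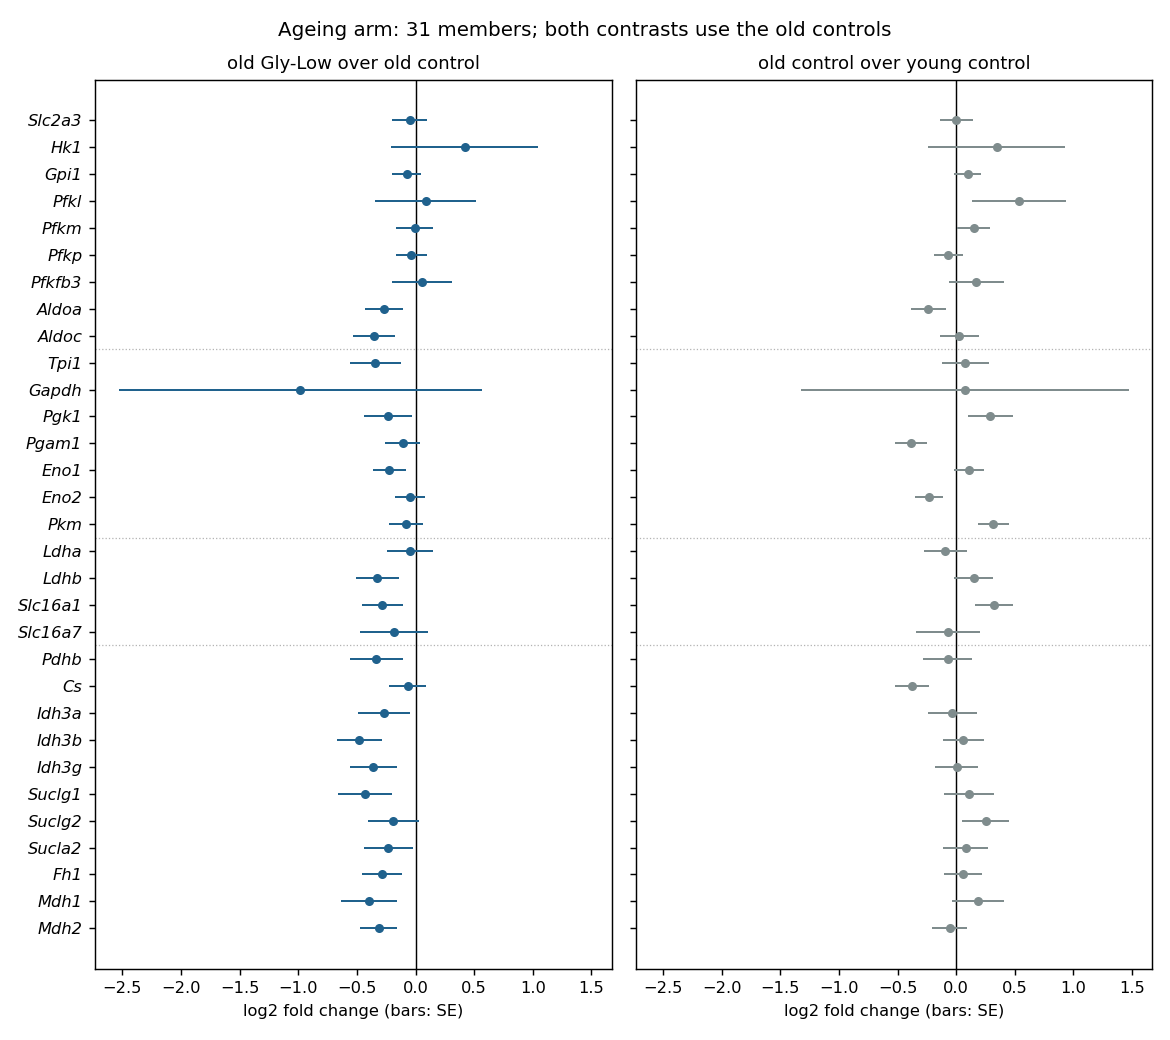
Log2 fold change (x axis) with SE bars of the 31 genes (rows) in old Gly-Low over old control (left) and old control over young control (right). On the left 28 of 31 genes lie below 0, and none was called in either comparison, which both use the old controls.

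The lactate dehydrogenase ratio was lowest in the old controls of the ageing arm. Ldha over Ldhb had a log2 ratio of −0.95, −0.84 and −0.86 in old Gly-Low, against −1.08, −1.19, −1.13 and −1.24 in old control. Young control libraries held −0.98, −0.82, −0.94 and −0.94. The old control libraries lay below both other groups of the ageing arm without overlap. The acute arm, at 4 months of age, was about as low as old control (−1.16 ± 0.07, SD). There the ratio averaged −1.17 ± 0.14 in acute control and −1.19 ± 0.21 in acute Gly-Low (SD), so low values were not particular to old mice. The difference was 0.27 for old Gly-Low minus old control (exact permutation p = 0.0571, adjusted p = 0.171) and −0.24 for old control minus young control (exact permutation p = 0.0286, adjusted p = 0.15), so neither passed, and both share the old controls. Aldoa over Aldoc was likewise lower in old control than in young control without overlap, at 0.57 ± 0.10 in old control against 0.85 ± 0.06 in young control (SD, n = 4 each, exact permutation p = 0.0286, adjusted p = 0.15). Acute control, at 4 months of age, stood at 0.63 ± 0.12 (SD, n = 5), nearer to old control than to young control.

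The acute and young control groups, both on the control diet for 1 week, show how far control libraries of the arms differ. Over all genes 0.923% were higher and 4.37% lower in acute control. Of the 31 genes, 1 was called, Aldoa, with 1115 to 1585 CPM in acute control against 1641 to 2093 CPM in young control (log2 fold change −0.49 ± 0.13, adjusted p = 0.0386). It was not called with the offset (adjusted p = 0.147). The acute fall of Aldoa was measured from a lower control level.

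Whether the diet differed between the arms was tested directly, as the acute difference minus the old difference. Over all genes 19.2% were called higher and 16.8% lower. Of the 31 genes, 11 were higher and 11 lower, with medians of 0.92 for the citric acid cycle genes and −0.85 for the glycolysis and lactate genes, against −0.10 for all genes. Pfkp had the smallest p, at −1.35 ± 0.15 (adjusted p = 9.5e-06), and remained called with the offset at −0.79 (adjusted p = 0.00193). Eno2 was at −1.25 ± 0.18 (adjusted p = 6.36e-05) and Slc2a3 at −1.10 ± 0.19 (adjusted p = 0.000253), which was at −0.32 (adjusted p = 0.388) with the offset. On the other side, Mdh1 was at 1.49 ± 0.27 (adjusted p = 0.00042) and Suclg2 at 1.04 ± 0.22 (adjusted p = 0.00114), and both were called with the offset too. With the offset 8 of the 31 genes were higher and 7 lower, where 12.4% of all genes were higher and 10.6% lower. With the length slope as a covariate 0 were higher and 8 lower, where 4.85% of all genes were higher and 4.17% lower. The arms differ in age and in length of treatment, which cannot be told apart here.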

How the data were processed

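The raw counts per gene were deposited by the authors for 20 hypothalamus libraries. Per the submitters' processing notes, HISAT2 2.0.5, featureCounts 1.5.0-p3, DESeq2 1.20.0 and GRCm38 were used. Annotation release and strand setting were not given in the sources used here. Libraries were poly-A selected and non-directional per the labels' protocols. Gene models came from GENCODE vM21 and promoters from RefSeq GRCm38.p6. No pair of libraries was a duplicate.

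Counts were filtered with filterByExpr, TMM scaled and tested with edgeR 4.0.16 (quasi-likelihood test, R 4.3.3), with Benjamini-Hochberg adjustment over all tested genes, and called at an adjusted p under 0.05 whatever the fold. The acute diet was fitted on its 9 libraries, age and the old diet on the 11 of the ageing arm, and the young groups and arm difference on all 20. Alternatives used DESeq2 1.42.0, limma 3.58.1 (voom with sample quality weights), other scalings and filters, left-out libraries, and offsets for length and GC content, of which the GC offsets and the ratios with trends removed were chosen after seeing the data. The code was tested on simulated data. Totals of 15848372 to 27399753 counts limit the precision of low genes.

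The members and lists were chosen with earlier results of these data known. All 31 genes are described whatever their values. Of each list of other pathway genes, the text takes its named genes from the called genes, up to 2 each way by smallest p.

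The main fits paired no libraries. Same-numbered libraries of the old diet groups deviated together, with correlations of 0.276 to 0.447. A pairing by the numbers in the sample titles was thus run as an alternative only. This pairing is uncertain, since each correlated best with another number and the count table numbers the old Gly-Low libraries 1, 4 and 5. For age the correlations were −0.0533 to 0.626, not all above 0.1. Numbers 2 (0.281) and 4 (0.626) correlated best with their own number while 1 and 3 did not, so whether age libraries are paired is uncertain too. In the acute comparison the correlations were −0.026 to 0.00893, so the libraries share only a number.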

Additional observations from a re-analysis of the deposited data

Results flagged for a closer look

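In 13 of 124 groups of 4 or 5 libraries, 1 library lay apart from the others by Dixon's criterion, where chance gives about 1 in 20. In acute Gly-Low these were library 1 for Gapdh (37.9 CPM), Pgk1 (508 CPM) and Idh3b (337 CPM), and library 2 for Pkm (828 CPM). In acute control they were library 1 for Idh3g (168 CPM) and library 5 for Pgam1 (269 CPM). Old control 3, with a high mitochondrial share, lay apart for Aldoc (1900.0 CPM) and Idh3g (194 CPM). Young control 4 lay apart for Aldoa (1641 CPM), Pkm (1488 CPM), Slc16a1 (45.1 CPM) and Suclg1 (120.5 CPM), and young control 3 for Gapdh (439 CPM).

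The difference with diet was another in the acute than in the old arm for 22 of the 31 genes by edgeR's test. Over all genes 19.2% were called higher and 16.8% lower. With the length and GC offset Slc2a3, Gpi1, Pfkm, Pkm, Cs, Tpi1, Ldhb, Pdhb and Suclg1 were not called. With the length slope covariate 0 of the 31 were higher and 8 lower, where 4.85% of all genes were higher and 4.17% lower. The values that follow are from the main fit. The log2 difference, acute minus old, was negative for Hk1 (−2.86), Pfkl (−1.74), Pfkp (−1.35), Pfkfb3 (−1.29), Eno2 (−1.25), Slc2a3 (−1.10), Pfkm (−0.89), Eno1 (−0.86), Pkm (−0.85), Gpi1 (−0.84) and Cs (−0.77). It was positive for Mdh1 (1.49), Sucla2 (1.17), Suclg2 (1.04), Suclg1 (0.94), Pdhb (0.93), Idh3b (0.92), Pgk1 (0.73), Ldhb (0.70), Tpi1 (0.69), Fh1 (0.68) and Aldoc (0.66).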

How the results depend on the processing

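In the acute comparison, 13 glycolysis and lactate genes were lower, and 11 to 13 when any 1 library was left out. The count of 3 higher became 5 with DESeq2, limma-voom or the GC offset, 1 without a filter or with the length offset, 0 with the length slope covariate or without acute controls 2, 3 and 5, and 1 to 4 when 1 library was left out, with 1 without acute Gly-Low 2, acute control 2 or acute control 5. The count of 7 higher citric acid cycle genes became 4 with the length offset or the length and GC offset, 0 with the slope covariate, 3 without acute controls 2, 3 and 5, and 6 to 8 when 1 library was left out. The 2 lower became 1 with the GC offset and 1 to 2 when 1 library was left out. With the replicate block, the acute glycolysis and lactate count was 1 higher and the citric acid cycle count 1 lower. Under the pairing of the old diet groups 0 genes of the 31 were called, as without it.

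With limma-voom, age gave 2 higher and 3 lower, where 9.43% of all genes were called higher and 12% lower. For the young groups the 0 higher became 4 with limma-voom, which called 2879 of all 19061 genes higher and 3189 lower. With 1 library left out the count was 0 to 2. The 2 higher, with 4 lower, came without young control 4, where 1814 of all 18969 genes were called higher and 2143 lower. The 1 lower became 10 with limma-voom, 0 with upper quartile scaling, no filter, the length, GC or joint offset, the slope covariate, without acute controls 2, 3 and 5, or without young control 2 and old control 3, and 0 to 4 with 1 library left out. For the arm difference the 11 higher became 6 with the length offset and 0 with the slope covariate, and the 11 lower became 7 with the joint offset.

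The sign turned in the acute comparison for Tpi1 (−0.38 with the length offset, −0.36 with the slope covariate, −0.19 with the joint offset), Ldha (−0.022 with the length offset, −0.27 with the covariate) and Pdhb (−0.10 with the covariate, −0.017 with the joint offset). With the covariate alone it turned for Pgk1 (−0.064), Idh3b (−0.195), Suclg1 (−0.29), Hk1 (0.22) and Pfkl (0.0074). In the arm difference it turned for Tpi1 (−0.23 with the length offset, −0.20 with the covariate) and, with the covariate, for Idh3a (−0.89), Suclg1 (−0.094), Hk1 (0.49) and Pfkl (0.30). Ldhb (−0.11) and Idh3g (−0.25), which were not called, also turned with the joint offset in the acute comparison. The log2 ratios Suclg2 over Sucla2 (0.50) and Pfkl over Pfkp (0.19) turned with trends removed. The cause was not tested.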
